A study of Mus musculus with 9 samples.

Results

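The angiopoietin and Tie system was examined in endothelial cells (ECs) sorted from mouse lungs with and without breast cancer metastases. Its members were chosen by name, as every probe set that the annotation of the array assigns to Angpt1, Angpt2, Angptl2, Angptl4, Tek, Tie1 or Ptprb alone. A probe set is a group of short probes against 1 transcript region, and a gene can have several. The rule found 11 of the 45037 probe sets that are not array controls, and they stand for 6 of the 7 genes. Angptl2 was not analysed here, because none of these probe sets is assigned to it. The rule itself uses gene names only.

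ECs came from NSG mice, which are immunodeficient and keep macrophages and other myeloid cells but lack functional lymphocytes. Mice were 6 to 8 weeks old when injected with cancer cells, and the healthy mice are described as age-matched, with no age in weeks of their own. The metastasis anti-VEGF group carried lung metastases and received B20.4.1.1, an antibody that blocks human and mouse VEGFA, intraperitoneally at 10 mg/kg. The metastasis IgG group carried the same metastases and received control IgG, and the healthy IgG group received control IgG without cancer cells. Cells of MDA-MB-231-LM2, which derive from a human breast cancer line and home to the lung, had been injected intravenously, and lungs were taken on day 21. The study picked metastatic mice with comparable metastatic load by imaging. No healthy mice with anti-VEGF were profiled, so the effect of the antibody without metastases could not be measured. Sorted cells carried CD31 and lacked CD45, CD11b, CD326, CD140a, CD140b and GFP, the last being a reporter in the cancer cells. They came from whole lungs, not from nodules alone. Each group had 3 arrays, labelled as biological replicates.

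Tie2, encoded by Tek, is a receptor tyrosine kinase of ECs and some myeloid cells. Angiopoietin-1, made mainly by cells around vessels and by platelets, activates Tie2 and keeps vessels quiescent. Angiopoietin-2 is made by ECs themselves, is stored in their Weibel-Palade bodies and in many settings opposes angiopoietin-1, and the receptor Tie1 pairs with Tie2 and shapes its response. The phosphatase VE-PTP, encoded by Ptprb, removes phosphate from Tie2 and from proteins of EC junctions. Angptl4 is a related secreted protein that inhibits lipoprotein lipase and does not bind Tie2.

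Promoter sequences are shown for Tek and Tie1, the receptor genes of the system and the measured members with a window in the sequence table used. Each window holds 250 bases before and 50 bases after the start of the gene in RefSeq on GRCm38.p6, read 5′ to 3′ on the strand of the gene. Tek lies on the plus strand at chr4:94739039-94739338 and Tie1 on the minus strand at chr4:118489800-118490099. Capitals mark GGAA or its reverse complement TTCC, the core of sites for ETS factors, a family that includes regulators of EC genes.
Tek: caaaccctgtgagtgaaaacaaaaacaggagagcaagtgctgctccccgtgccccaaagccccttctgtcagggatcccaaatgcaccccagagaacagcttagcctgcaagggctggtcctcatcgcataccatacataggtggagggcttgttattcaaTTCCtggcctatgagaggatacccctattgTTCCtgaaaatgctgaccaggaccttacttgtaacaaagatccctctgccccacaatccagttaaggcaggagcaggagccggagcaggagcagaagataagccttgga
Tie1: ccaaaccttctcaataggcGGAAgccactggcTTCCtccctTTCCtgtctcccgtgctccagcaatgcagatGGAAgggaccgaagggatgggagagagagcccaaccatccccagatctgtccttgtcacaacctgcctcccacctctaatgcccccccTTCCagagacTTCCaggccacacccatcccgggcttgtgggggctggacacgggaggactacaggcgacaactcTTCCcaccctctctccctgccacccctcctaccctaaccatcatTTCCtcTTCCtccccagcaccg
The Tek window held 2 matches and the Tie1 window 9, counted on both strands. Of 32851 windows of this length, 96.0% held at least 1 match, with a median of 3, and 1.6% held as many as the Tie1 window. The forkhead motif TGTTTAC was in 3.6% of all windows and the hypoxia response core ACGTG in 19.6%, and these letters were in neither receptor window on either strand. A match is a description of letters, not a measured binding site.

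The authors deposited log2 intensities, so a difference of 1 is a 2-fold change, and values of different probe sets are not comparable as amounts of RNA. Groups were compared in pairs with limma on all 45037 probe sets, and a probe set was called where its p, adjusted after Benjamini and Hochberg, was under 0.05. Arrays of the same group correlated at 0.9879 to 0.9915 and healthy with metastatic arrays at 0.9759 to 0.9846. The ECs carried their markers, since the mean log2 signal of 16 pan-endothelial genes lay between 12.58 and 12.63 in all 9 arrays. Macrophage and monocyte genes were higher in metastatic lungs, with mean log2 signals of 9.20 to 9.47 under anti-VEGF and 9.19 to 9.30 under IgG, against 8.39 to 8.66 in healthy IgG arrays, and 11 of 21 were called in each metastatic group against healthy IgG. Pdgfrb, which encodes the CD140b that the sort was to exclude, averaged 9.06 in metastasis IgG and 7.88 in healthy IgG arrays and was called as well (1.18 ± 0.24, SE, n = 3 arrays per group, adjusted p = 0.0244). It was the only 1 called of 6 genes of the markers used in the sort, of which 2 differed below 0 and 4 above 0 in this comparison. In such pools, fewer cells of a type and less RNA per cell cannot be told apart.

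Of the ligands of Tie2, Angpt1 was called lower in cells sorted from metastatic than from healthy lungs with 1 probe set. No Angpt2 probe set was called. Metastasis IgG against healthy IgG asks what ECs express differently once metastases have grown, and here 1 of 11 member probe sets was called, lower, where limma called 6.11% of all probe sets and 2.59% as lower. The arrays of both groups did not overlap in 6 member probe sets, 3 of them above and 3 below healthy, against 26% of all probe sets. The median of the absolute log2 difference was 0.27 over the members and 0.12 over all probe sets. The called probe set belongs to Angpt1, and the leading Angpt2 probe set lay just outside the threshold with a positive difference.

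**Figure D1:**
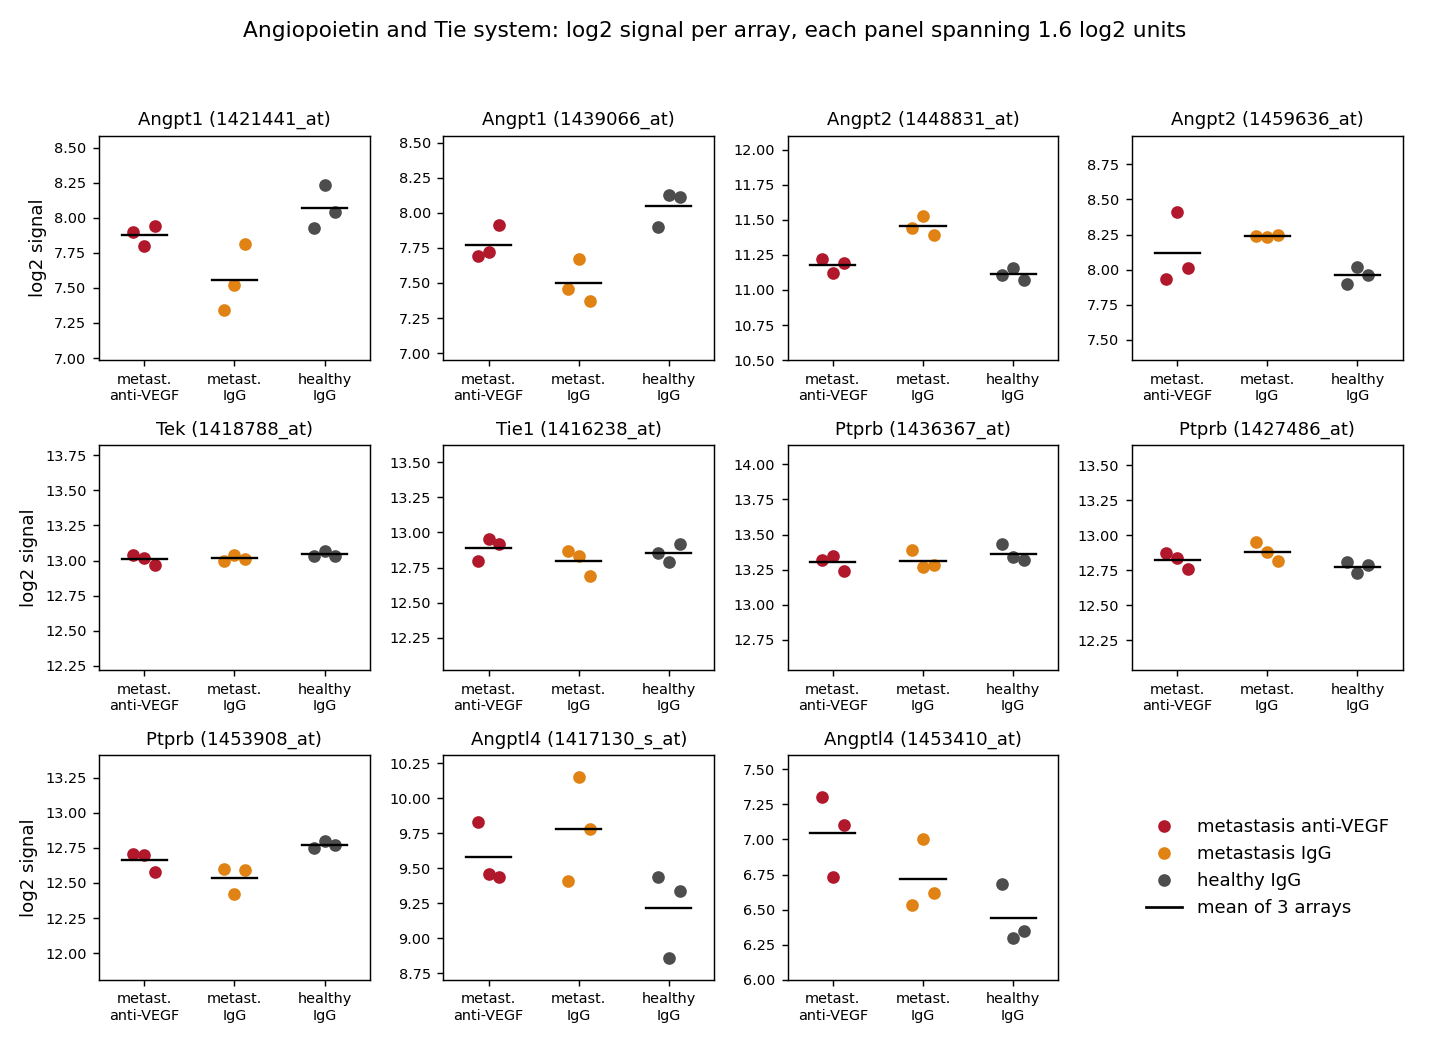
Each panel shows 1 probe set, with 1 point per array on a log2 axis of the same span, columns for metastasis anti-VEGF, metastasis IgG and healthy IgG, and a line for the mean of 3 arrays. Both Angpt1 probe sets are lowest and both Angpt2 probe sets highest on average under metastasis IgG, whereas the Tek points stay between 12.97 and 13.07.

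The signal of Angpt1, the activating ligand of Tie2, was lower in cells sorted from metastatic lungs by 1 of its 2 probe sets. The other probe set had a difference of like size that did not pass. Probe set 1439066_at read 7.46, 7.67 and 7.37 in metastasis IgG arrays, against 7.90, 8.13 and 8.11 in healthy IgG arrays. All metastatic values lay below all healthy ones. The difference was -0.55 ± 0.11 on the log2 scale (SE, n = 3 arrays per group, 95% interval -0.80 to -0.30), which puts the metastatic signal at 68.4% of the healthy one, with an adjusted p of 0.0255. Probe set 1421441_at read 7.34, 7.52 and 7.81 in metastasis IgG arrays, against 7.93, 8.23 and 8.04 in healthy IgG arrays. These groups did not overlap either, although metastasis IgG array 3 came close to healthy IgG array 1. Its difference of -0.51 ± 0.14 did not pass (adjusted p = 0.0680).

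The Angpt1 call was lost when some single arrays were left out. Calls over all probe sets also fell with an array left out, from 2753 to between 1318 and 2348. Without metastasis IgG array 1 or 3 the adjusted p of 1439066_at was 0.0828 or 0.0674, and without healthy IgG array 2 or 3 it was 0.0948 or 0.0901. The difference stayed between -0.63 and -0.48 under the 14 alternatives, with adjusted p of 0.0141 to 0.0948. With metastasis IgG array 3 left out, the other probe set passed instead (-0.63, adjusted p = 0.0323). When the probe sets of a gene were averaged before the fit, Angpt1 fell by 0.53 ± 0.09 with an adjusted p of 0.0113. Both probe sets were dim, at percentile 38.3 and 39.7 of the mean signals on the array.

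Cells other than ECs make Angpt1, and some of their markers were called as well. The mean log2 signal of 9 platelet and megakaryocyte genes was 8.54 to 8.62 under anti-VEGF and 8.27 to 8.46 under IgG in metastatic lungs, against 8.50 to 8.55 in healthy IgG arrays. Of these 9 genes, Ppbp, a platelet chemokine, was called lower in metastasis IgG than in healthy IgG (-0.54 ± 0.10, adjusted p = 0.0149). None was called higher in this comparison, where 6 of the 9 differed below 0 and 3 above. By mean signal, 3 lay below the median of the array. The mean of 13 pericyte and smooth muscle genes was 8.57 to 8.71 under anti-VEGF and 8.59 to 8.77 under IgG, against 8.20 to 8.57 in healthy IgG arrays. Of these, Pdgfrb and the pericyte gene Rgs5 (1.06 ± 0.21, adjusted p = 0.0221) were called higher in metastasis IgG than in healthy IgG arrays. None was called lower, 10 of the 13 differed above 0 and 3 below, and 5 lay below the median signal.

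Fibroblast genes moved in both directions. The mean of 14 fibroblast genes was 9.82 to 10.09 under anti-VEGF and 9.75 to 10.06 under IgG in metastatic lungs, against 9.24 to 10.1 in healthy IgG arrays, and 2 lay below the median signal. In metastasis IgG against healthy IgG, 4 were called higher and 2 lower. The matrix genes Fn1, Col1a1 and Col1a2 rose by 1.70 ± 0.16, 1.48 ± 0.14 and 1.44 ± 0.20 (adjusted p = 0.000846, 0.000846 and 0.00479), and Col3a1 by 0.98 ± 0.15 (adjusted p = 0.00901). Inmt, a methyltransferase, fell by 1.06 ± 0.20 and Gsn, which encodes the actin-severing protein gelsolin, by 1.15 ± 0.25 (adjusted p = 0.0205 and 0.0343). Among the other cell type lists, 2 of 13 epithelial genes were called higher, the surfactant proteins Sftpd and Sftpb, as were 1 of 5 mesothelial genes, Wt1, and 1 of 8 lymphatic genes, Pdpn, while Fxyd6 of the lymphatic list was called lower and none of 5 adipocyte genes was called. In metastasis IgG against healthy IgG, 4 of 13 epithelial, 4 of 5 mesothelial and 1 of 8 lymphatic genes differed below 0. The part of the listed cell types, platelets and pericytes included, in the Angpt1 values was not tested. RNA integrity was read from beta-actin as its 3′ signal minus its 5′ signal, which was 0.526 to 0.62 in anti-VEGF and 0.488 to 0.555 in metastasis IgG arrays, against 0.609 to 0.62 in healthy IgG arrays, and its part was not tested either.

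Angpt2, the ligand that ECs release themselves, read above healthy in metastatic lungs with both of its probe sets, and neither passed the threshold. Probe set 1448831_at read 11.44, 11.53 and 11.39 in metastasis IgG arrays, against 11.11, 11.16 and 11.07 in healthy IgG arrays. The groups were separate, with narrow spreads of 0.07 and 0.04 (SD). The difference of 0.34 ± 0.08 (95% interval 0.14 to 0.53) is a 1.26-fold signal with an adjusted p of 0.0542. Probe set 1459636_at read 8.24, 8.23 and 8.25 in metastasis IgG arrays, against 7.90, 8.02 and 7.96 in healthy IgG arrays, also without overlap, and differed by 0.28 ± 0.08 (adjusted p = 0.0903). This probe set was dim, at percentile 45.9 of the mean signals, whereas 1448831_at was at percentile 90.8. With 3 against 3 arrays an exact permutation test of a single probe set cannot go below p = 0.1 (two-sided). Groups that do not overlap reach this value, as 26% of all probe sets did, so it only restates the separation. Both Angpt2 and both Angpt1 probe sets reached it, as did Ptprb 1427486_at and 1453908_at, whose differences had opposite signs.

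The side of the threshold for Angpt2 depended on the fit while the size did not. The difference of 1448831_at stayed between 0.30 and 0.37 under all alternatives, and its adjusted p ran from 0.0100 to 0.170. It passed in 5 of 16 alternatives, among them a fit of all 9 arrays (adjusted p = 0.0312) and a filter on dim probe sets (adjusted p = 0.0220). With probe sets averaged, Angpt2 rose by 0.31 ± 0.07 with an adjusted p of 0.0247. The genes most like 1448831_at over the 9 arrays, by the root mean square difference of centred log2 values among 10716 genes at or above the median signal, were Clspn at 0.0505, a checkpoint protein of DNA replication, B3galnt1 at 0.0560, a glycosyltransferase, and D930048N14Rik at 0.0566. For Angpt1 1421441_at they were Pianp, Usp42 and Hoxa2, at 0.0852, 0.0870 and 0.0977. Likeness of this kind says nothing of shared control.

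Under anti-VEGF, the signals of both ligands lay nearer to the healthy ones than under IgG, but no difference passed. In the comparison of metastasis anti-VEGF with metastasis IgG, which asks what VEGF blockade changes in metastatic lungs, limma called 0 of 11 member probe sets and 0% of all 45037. At an unadjusted p under 0.05 there were 3 member probe sets and 7.35% of all. The median of the absolute log2 difference was 0.13 over the members and 0.09 over all probe sets. Groups did not overlap in 2 member probe sets, against 12.5% of all. These are the leading Angpt2 probe set, below, and 1 Angpt1 probe set, above.

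Angpt2 1448831_at read 11.22, 11.12 and 11.19 in metastasis anti-VEGF arrays, against 11.44, 11.53 and 11.39 in metastasis IgG arrays. Every anti-VEGF array lay below every IgG array. The difference was -0.27 ± 0.09 (95% interval -0.48 to -0.07, unadjusted p = 0.0144 in limma, adjusted p = 0.562). Angpt2 1459636_at read 7.93, 8.41 and 8.01 in anti-VEGF arrays, against 8.24, 8.23 and 8.25 in metastasis IgG arrays. Here anti-VEGF array 2 was the highest of all and the groups overlapped (-0.12 ± 0.13, adjusted p = 0.887).

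Angpt1 1439066_at read 7.69, 7.72 and 7.91 in metastasis anti-VEGF arrays, against 7.46, 7.67 and 7.37 in metastasis IgG arrays. The groups did not overlap, but anti-VEGF array 1 and IgG array 2 were close. The difference of 0.28 ± 0.11 had an adjusted p of 0.657. Angpt1 1421441_at read 7.90, 7.80 and 7.94 in anti-VEGF arrays, against 7.34, 7.52 and 7.81 in metastasis IgG arrays. Here IgG array 3 lay within the anti-VEGF range, and the difference of 0.33 ± 0.13 had an adjusted p of 0.635.

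Against healthy IgG, limma called none of the 11 member probe sets in metastasis anti-VEGF arrays, where it called 4.26% of all probe sets. The median of the absolute log2 difference was 0.11 over the members and 0.12 over all probe sets. At an unadjusted p under 0.05 there were 2 member probe sets and 18.8% of all, and 3 member probe sets did not overlap, against 24.2% of all. Angpt2 1448831_at differed by 0.06 ± 0.08 (95% interval -0.13 to 0.25, adjusted p = 0.759) and 1459636_at by 0.15 ± 0.13 (adjusted p = 0.596). Angpt1 1439066_at differed by -0.27 ± 0.10 (95% interval -0.51 to -0.03, adjusted p = 0.204) and 1421441_at by -0.18 ± 0.10 (adjusted p = 0.403). All 4 overlapped with healthy IgG. The 3 comparisons share arrays in pairs, so an array that reads high moves the value in both of its comparisons, and the values stand here side by side only.

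**Figure D2:**
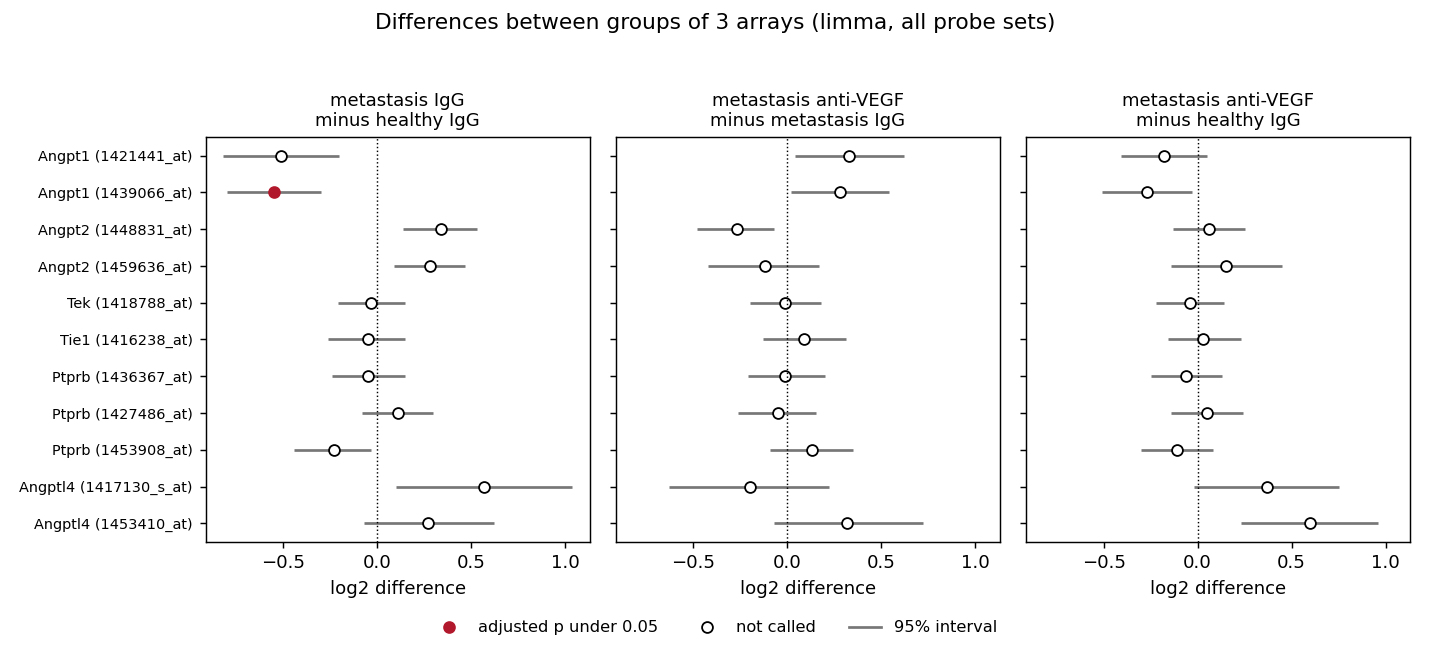
Points are log2 differences of group means for the 11 probe sets in the 3 comparisons, bars are 95% intervals from limma (3 arrays per group), and the filled point passed an adjusted p of 0.05. Angpt1 1439066_at at -0.55 is the filled point, and the Tek points lie at -0.03, -0.01 and -0.04.

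Because the ligands act on the same receptor, the difference between the Angpt2 and Angpt1 signals was also read within each array. With 1448831_at and 1421441_at, Angpt2 minus Angpt1 was 3.32, 3.32 and 3.25 in metastasis anti-VEGF arrays, 4.10, 4.01 and 3.58 in metastasis IgG arrays, and 3.19, 2.93 and 3.03 in healthy IgG arrays. With this Angpt2 probe set the metastasis IgG arrays stood above all others, and the anti-VEGF arrays lay just above the healthy ones. The means were 3.29 ± 0.04 under anti-VEGF and 3.90 ± 0.28 under IgG in metastatic lungs, against 3.05 ± 0.13 in healthy lungs (SD, n = 3 arrays). With the other Angpt1 probe set, means were 3.40 ± 0.13 under anti-VEGF and 3.95 ± 0.08 under IgG in metastatic lungs, against 3.07 ± 0.13 in healthy lungs.

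With the other Angpt2 probe set, 1459636_at, which was dim like both Angpt1 probe sets, the metastatic groups were not separate. Against 1421441_at the difference was 0.02, 0.60 and 0.07 in metastasis anti-VEGF arrays, 0.90, 0.71 and 0.45 in metastasis IgG arrays, and -0.03, -0.20 and -0.07 in healthy IgG arrays. Against 1439066_at it was 0.24, 0.68 and 0.10 in metastasis anti-VEGF arrays, 0.78, 0.56 and 0.89 in metastasis IgG arrays, and 0.00, -0.11 and -0.14 in healthy IgG arrays. In both pairs anti-VEGF array 2 lay above the lowest metastasis IgG array, and all metastatic arrays lay above the healthy ones. The measure was formed from values already seen, the pairs with 1459636_at were added after seeing the data, and it carries no test. Its zero has no meaning, since the probe sets bind with different strength, and only the change between arrays can be read.

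**Figure D3:**
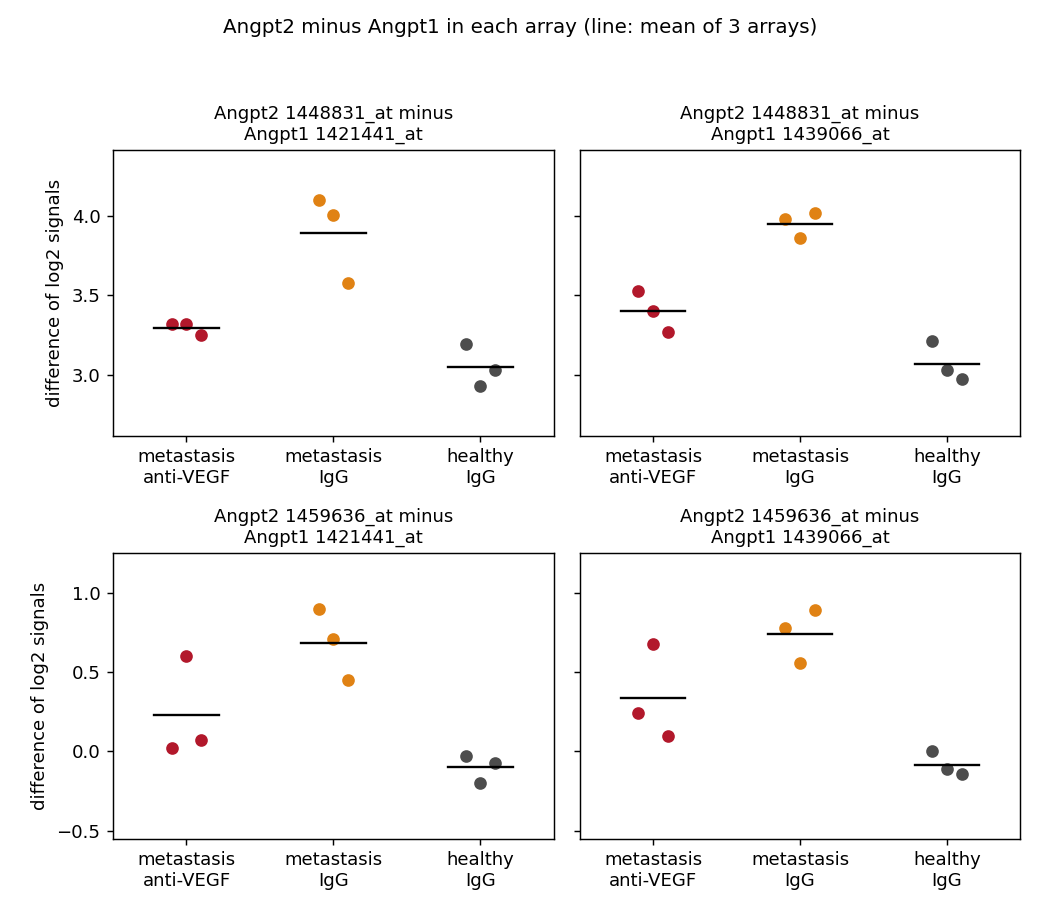
Each point is the Angpt2 log2 signal minus the Angpt1 log2 signal in 1 array, for each pair of probe sets, with columns for metastasis anti-VEGF, metastasis IgG and healthy IgG and a line for the mean of 3 arrays. With Angpt2 1448831_at (upper panels) the metastasis IgG arrays stand highest, with means of 3.90 and 3.95, and with 1459636_at (lower panels) anti-VEGF array 2 lies among them, at 0.60 and 0.68.

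No difference was called for the receptors. Tek 1418788_at read 13.04, 13.02 and 12.97 in metastasis anti-VEGF arrays, 13.00, 13.04 and 13.01 in metastasis IgG arrays, and 13.03, 13.07 and 13.03 in healthy IgG arrays. All 9 values lay within 0.10 log2 units, with an SD of 0.0293. The difference of metastasis IgG from healthy IgG was -0.03 ± 0.08 (95% interval -0.21 to 0.15, adjusted p = 0.883), and that of anti-VEGF from metastasis IgG was -0.01 ± 0.08 (95% interval -0.20 to 0.18, adjusted p = 0.991). These intervals bound any change of Tek signal, and a value that misses the threshold does not show that groups were alike.

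Tie1 1416238_at read 12.80, 12.95 and 12.92 in metastasis anti-VEGF arrays, 12.87, 12.83 and 12.69 in metastasis IgG arrays, and 12.85, 12.79 and 12.92 in healthy IgG arrays. The 3 groups overlapped. Metastasis IgG differed from healthy IgG by -0.05 ± 0.09 (95% interval -0.26 to 0.15) and anti-VEGF from metastasis IgG by 0.09 ± 0.10 (95% interval -0.13 to 0.31), with adjusted p of 0.795 and 0.891.

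Both receptors had bright signals, at percentile 99.5 of the mean signals for Tek and 99.2 for Tie1, where array signals can be compressed and a change of RNA can be understated. Bright probe sets also varied little in general, since the median SD over the 9 arrays was 0.0809 for the 901 probe sets from percentile 98 upward and 0.158 for all. Among these 901, the SD of Tek was at percentile 1.78 and that of Tie1, 0.0790, at percentile 48.2. Whether compression limited the differences of Tek, Tie1 and Ptprb was not tested.

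Ptprb, the phosphatase that restrains Tie2, gave no common direction over its 3 probe sets. Probe set 1436367_at read 13.32, 13.35 and 13.24 in metastasis anti-VEGF arrays, 13.39, 13.27 and 13.28 in metastasis IgG arrays, and 13.43, 13.34 and 13.32 in healthy IgG arrays. These overlapped, and metastasis IgG differed from healthy IgG by -0.05 ± 0.09 (adjusted p = 0.811). Probe set 1453908_at read 12.71, 12.70 and 12.58 in metastasis anti-VEGF arrays, 12.60, 12.42 and 12.59 in metastasis IgG arrays, and 12.75, 12.80 and 12.77 in healthy IgG arrays. All metastatic values of this probe set lay below the healthy ones (metastasis IgG against healthy IgG -0.23 ± 0.09, adjusted p = 0.176).

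The remaining Ptprb probe set, 1427486_at, read 12.87, 12.84 and 12.76 in metastasis anti-VEGF arrays, 12.95, 12.88 and 12.82 in metastasis IgG arrays, and 12.81, 12.73 and 12.79 in healthy IgG arrays. Here metastasis IgG lay just above healthy IgG without overlap (0.11 ± 0.08, adjusted p = 0.538). Non-overlapping groups of opposite sign thus occurred within 1 gene. Averaged over its probe sets, Ptprb differed by -0.06 ± 0.07 between metastasis IgG and healthy IgG (adjusted p = 0.667).

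Angptl4, the inhibitor of lipoprotein lipase, was the member with the largest SD over the 9 arrays. Probe set 1417130_s_at, whose suffix marks probes that can match more than 1 transcript, read 9.83, 9.46 and 9.44 in metastasis anti-VEGF arrays, 9.41, 10.15 and 9.78 in metastasis IgG arrays, and 9.44, 8.86 and 9.34 in healthy IgG arrays. The arrays of a group were spread widely, with an SD of 0.22 under anti-VEGF and 0.37 under IgG in metastatic lungs, against 0.31 in healthy lungs, and the SD over 9 arrays was at percentile 95.2 of all probe sets. The difference of metastasis IgG from healthy IgG was 0.57 ± 0.21 (1.48-fold, 95% interval 0.10 to 1.04, adjusted p = 0.165), with overlap. Anti-VEGF differed from metastasis IgG by -0.20 ± 0.19 (adjusted p = 0.867) and from healthy IgG by 0.37 ± 0.17 (adjusted p = 0.295).

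The other Angptl4 probe set, 1453410_at, was dim, at percentile 13.3 of the mean signals. It read 7.30, 6.73 and 7.10 in metastasis anti-VEGF arrays, 6.53, 7.0 and 6.62 in metastasis IgG arrays, and 6.68, 6.30 and 6.35 in healthy IgG arrays. Anti-VEGF arrays all lay above healthy IgG arrays, by 0.60 ± 0.16 (1.51-fold, 95% interval 0.23 to 0.96, adjusted p = 0.0803), whereas metastasis IgG overlapped with healthy IgG (0.27 ± 0.15, adjusted p = 0.360). Without anti-VEGF array 2 the difference of anti-VEGF from healthy IgG was 0.76 and passed (adjusted p = 0.0448). It passed in 3 of 14 alternatives, over which the adjusted p ran from 0.0360 to 0.225. Under anti-VEGF against metastasis IgG the probe sets had opposite signs, -0.20 and 0.32, and neither passed. The genes most like 1417130_s_at were Klhl32, Haus4 and Plin2, at root mean square differences of 0.133, 0.177 and 0.185, of which Plin2 coats lipid droplets.

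The genes around the system were read from lists and 1 probe set per gene, the brightest, which for Angpt1 is not the called probe set. Of all 18193 genes, 829 were called higher and 457 lower in metastasis IgG against healthy IgG, or 7.07%, with a median difference of 0. The other Tie ligand Angpt4 and Svep1, a matrix protein that binds Tie1, were not called, at -0.36 ± 0.27 (adjusted p = 0.516) and 0.27 ± 0.09 (adjusted p = 0.132). Of the angiopoietin-like family, 5 genes were measured and none was called. With Tek, Tie1 and Ptprb stood the proteases of receptor shedding, of which Mmp14, a membrane protease, rose by 0.91 ± 0.14 (adjusted p = 0.00696), while Adam10 differed by 0.23 ± 0.10 (adjusted p = 0.229). Mmp14 was also called in anti-VEGF against healthy IgG, at 0.94 ± 0.12 (adjusted p = 0.00514).

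Downstream of Tie2, 1 of 18 measured adaptor and signalling genes was called, Grb14, an adaptor that binds activated receptors, at -0.63 ± 0.12 (adjusted p = 0.0175). Grb2, another adaptor, differed by 0.27 ± 0.09 (adjusted p = 0.114), and the median of these 18 genes was 0.01. Grb14 was called as well in anti-VEGF against healthy IgG, at -0.57 ± 0.11 (adjusted p = 0.0252). FOXO1 is the transcription factor that Tie2 signalling holds inactive, and of 16 genes of FOXO1 and its EC targets, Angpt2 included, 1 was called higher and 1 lower. Of these 16, 9 differed below 0 and 7 above, with a median of -0.10. Trib1, a pseudokinase, rose by 0.47 ± 0.09 (adjusted p = 0.0257) and Bcl2l11, which promotes cell death, fell by 0.44 ± 0.10 (adjusted p = 0.0334). Of 8 genes of VE-PTP substrates and the adherens junction, none was called, and the smallest p was that of Jup, plakoglobin, at -0.29 ± 0.10 (adjusted p = 0.149).

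Among 15 listed regulators of Angpt2 transcription, 4 were called, or 26.7%, with a median of -0.08. Hif1a, a subunit of the hypoxia-inducible factor, rose by 0.85 ± 0.08 (adjusted p = 0.000912). Gata3 fell by 0.69 ± 0.09 (adjusted p = 0.00449), Foxc2 by 0.66 ± 0.12 (adjusted p = 0.0175) and Foxc1 by 0.46 ± 0.10 (adjusted p = 0.0328). They were also called in anti-VEGF against healthy IgG, with Hif1a at 0.84 ± 0.09 and Gata3, Foxc2 and Foxc1 at -0.60 ± 0.10, -0.64 ± 0.08 and -0.57 ± 0.13. None of the 15 was called between anti-VEGF and metastasis IgG.

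Weibel-Palade bodies are the storage granules from which ECs release angiopoietin-2. Of 14 measured genes of the granule and its release, Angpt2 included, Selp, the adhesion receptor P-selectin, rose by 0.65 ± 0.08 in metastasis IgG against healthy IgG (adjusted p = 0.00321). Rab27a, a GTPase of granule traffic, fell by 0.43 ± 0.08 (adjusted p = 0.0231), and the median was -0.12. Selp was also called in anti-VEGF against healthy IgG, at 0.82 ± 0.09 (adjusted p = 0.00159), and Rab27a, at -0.33 ± 0.10, was not (adjusted p = 0.131).

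Integrins can bind angiopoietins where Tie2 is low. Of 7 measured integrin genes, Itgb3, the beta-3 chain, rose by 1.10 ± 0.14 (adjusted p = 0.00327) and Itga5, the alpha-5 chain of the fibronectin receptor, by 0.52 ± 0.09 (adjusted p = 0.0135) in metastasis IgG against healthy IgG. Both were also called in anti-VEGF against healthy IgG, at 0.75 ± 0.09 and 0.60 ± 0.11. Itgb3 differed by -0.35 ± 0.14 between anti-VEGF and metastasis IgG, which did not pass (adjusted p = 0.661). Platelets and macrophages carry integrin beta-3 as well, and the part of the marker levels given above was not tested.

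Of 17 measured genes around Angptl4 and lipid handling, 4 were called higher and none lower in metastasis IgG against healthy IgG, with a median of 0.19. Of all 17, 11 differed above 0 and 6 below. Fabp5, a fatty acid carrier, rose by 1.28 ± 0.17 (adjusted p = 0.00377), the lipoprotein receptor Scarb1 by 0.65 ± 0.08 (adjusted p = 0.00329), and Lpl, lipoprotein lipase and the target of Angptl4, by 0.53 ± 0.12 (adjusted p = 0.0410). Ppard, a nuclear receptor that induces Angptl4, rose by 0.44 ± 0.09 (adjusted p = 0.0233). In anti-VEGF against metastasis IgG, Lpl averaged 11.90 in anti-VEGF and 12.43 in IgG arrays without overlap, a difference of -0.53 ± 0.13 that did not pass (adjusted p = 0.511). In anti-VEGF against healthy IgG, Fabp5 at 0.83 ± 0.15 and Scarb1 at 0.65 ± 0.08 were called higher, and Fabp4, another fatty acid carrier, was called lower at -1.22 ± 0.16 (adjusted p = 0.00518). Fabp4 also lay below healthy IgG in metastasis IgG arrays without overlap, at -0.80 ± 0.21, but did not pass (adjusted p = 0.0606).

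Angpt2 and Angptl4 are induced by low oxygen in many cells, and Angpt2 marks tip cells, the leading cells of sprouts. Of 20 hypoxia targets, 7 were called in metastasis IgG against healthy IgG, all higher, or 35%, with a median of 0.34. Ankrd37 rose by 1.60 ± 0.12 (adjusted p = 0.000242) and Adm, the vasoactive peptide adrenomedullin, by 1.49 ± 0.15 (adjusted p = 0.00131). Ndrg1, a stress-induced gene, rose by 0.99 ± 0.09 and the glucose transporter Slc2a1 by 0.96 ± 0.11 (adjusted p = 0.000716 and 0.00220). Of 24 tip cell genes, Angpt2 and Adm included, 9 were called, all higher, or 37.5%, with a median of 0.32. Trp53i11 rose by 2.02 ± 0.21 (adjusted p = 0.00129), Rgcc, a cell cycle regulator, by 1.83 ± 0.23 (adjusted p = 0.00320) and Igfbp3, which binds insulin-like growth factors, by 1.34 ± 0.25 (adjusted p = 0.0176).

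Between anti-VEGF and metastasis IgG, no gene of any list was called, nor any of all 18193 genes. Of the 24 tip cell genes, 20 had a difference below 0, with a median of -0.13, and of the 20 hypoxia targets 16, with a median of -0.10. Over all genes, 9415 of 18193 lay below 0, with a median of -0.01. The lean was not particular to these lists, since 13 of 17 lipid handling, 10 of 13 epithelial and 7 of 8 lymphatic genes also lay below 0. Fewer did in other lists, such as 4 of 15 regulators of Angpt2 transcription and 2 of 9 platelet and megakaryocyte genes. Esm1, a proteoglycan of tip cells and a FOXO1 target, differed by -0.58 ± 0.13 (adjusted p = 0.511), and Nid2, a basement membrane protein, by -0.60 ± 0.16 (adjusted p = 0.516). In anti-VEGF against healthy IgG, where 4.99% of genes were called, 8 hypoxia targets were called higher and 1 lower. Of the tip cell genes, 3 were called higher and 2 lower, the latter Esm1 (-0.70 ± 0.13, adjusted p = 0.0228) and Kcne3 (-0.85 ± 0.15, adjusted p = 0.0191).

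**Figure D4:**
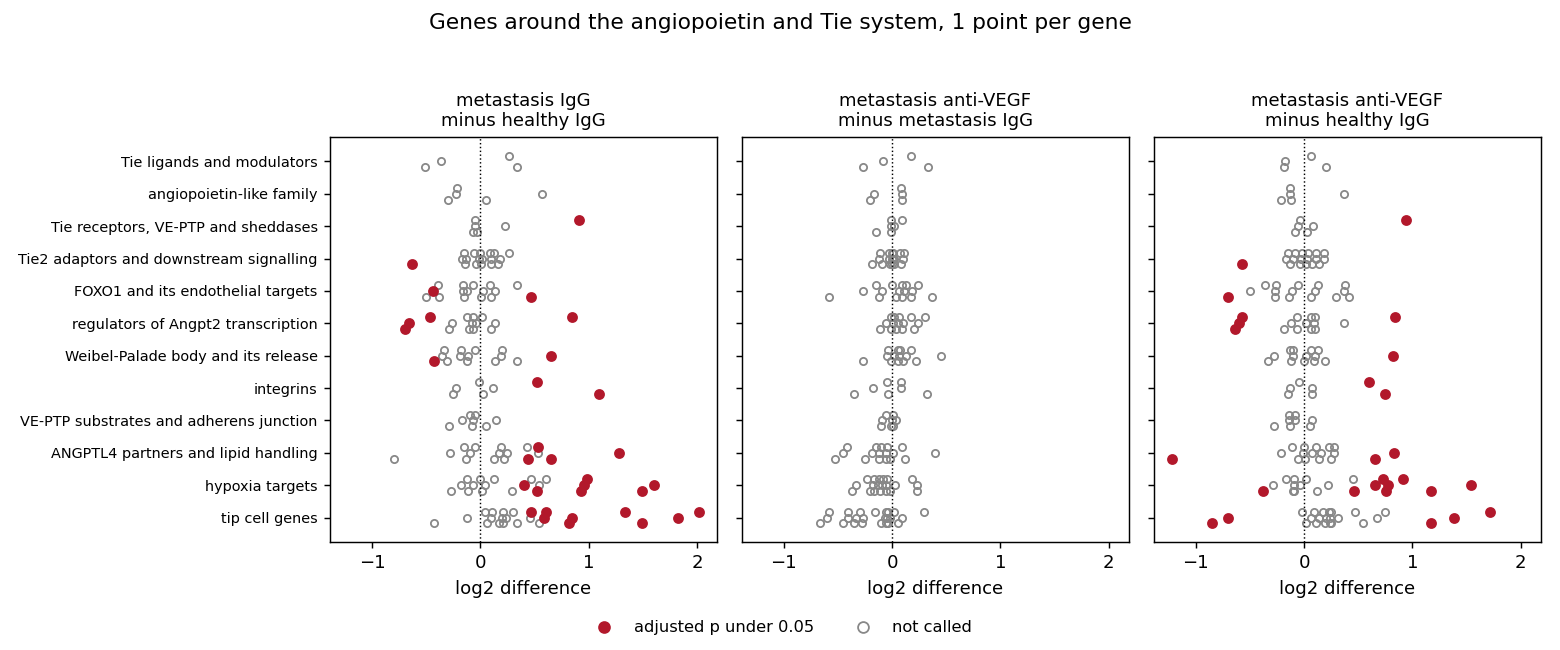
Each point is the log2 difference of 1 gene in 1 of 3 comparisons, by list from top to bottom, and filled points passed an adjusted p of 0.05 in limma (3 arrays per group). The hypoxia and tip cell lists hold 7 and 9 filled points in metastasis IgG minus healthy IgG, and the middle panel holds none.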

How the data were processed

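The authors normalized the Affymetrix mouse genome arrays, labelled from 1 ng of RNA, by robust multiarray average in Chipster. What they deposited is a table of log2 intensities, with 45101 probe sets and 9 arrays. It was used unaltered, leaving out 64 control probe sets. Of the rest, 34945 carry 1 gene, 932 several and 9160 none. Median signals of the arrays were 8.309 to 8.311, and the number of arrays limits the precision. Gene names came from the platform annotation.

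The 6 arrays of each comparison were fitted by themselves in R 4.3.3 with lmFit and eBayes of limma 3.58.1 (two-sided, no block, no filter on dim probe sets), with Benjamini-Hochberg adjustment over 45037 probe sets. List counts use the probe set of a gene with the highest mean over 9 arrays, its leading probe set.

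The members, lists and tests were chosen with earlier results of these data known. All member probe sets were described. Of each list, up to 4 called genes with the largest difference were to be named, or the 2 of smallest p where fewer than 2 passed, and of each cell type list up to 3 called genes. Macrophage genes and some pathway genes are given by count only, called genes of the cell type lists are given for metastasis IgG against healthy IgG alone, and the fibroblast genes beyond 3 were added after their values were seen. For leading probe sets, the 3 genes of most like profile were taken, and those of Angpt1, Angpt2 and Angptl4 are given.

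Alternatives were a joint fit of the 9 arrays, a filter on dim probe sets, a block for the replicate number, trend and robust settings, array weights, 1 or averaged probe sets per gene, the study's thresholds (log2 difference over 0.75, p under 0.05, adjusted p under 0.25), arrays centred on their median, a second quantile normalization, probe sets with shared suffixes left out, and each array left out in turn. The study set the thresholds named here for genes of secreted proteins in its time course, a different experiment. For its anti-VEGF arrays it gave other cutoffs. Figures were drawn with matplotlib 3.10.9 in Python 3.11.15.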

Additional observations from a re-analysis of the deposited data

How the results depend on the processing

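With 3 arrays per group, counts of calls moved with the processing more than the differences did. Of the 11 member probe sets in metastasis IgG against healthy IgG, 1 was called in the fit reported, 3 in a fit of all 9 arrays and with trend and robust settings, 2 with array weights, 0 at the study's thresholds, and 0 to 1 with an array left out. With averaged probe sets, 2 of the 6 measured member genes were called in this comparison, beside 1722 of all 18193 genes. For the joint fit, trend and robust settings and array weights, the count over all probe sets in this comparison is not given here. The member counts of 3 and 2 thus stand without a share to set them against. In anti-VEGF against healthy IgG, 0 became 1 with trend and robust settings and 0 to 1 with an array left out, and in anti-VEGF against metastasis IgG it stayed 0. Of all probe sets, 2753 were called in metastasis IgG against healthy IgG, with 1640 at 1 probe set per gene, 1722 at averaged probe sets, 1022 at the study's thresholds and 1318 to 2348 with an array left out, the lowest without healthy IgG array 2. In anti-VEGF against healthy IgG, 1919 were called, with 3170 under trend and robust settings, 1172 at 1 probe set per gene, 1248 at averaged probe sets, 816 at the study's thresholds and 965 to 1848 with an array left out. Fewer probe sets are tested at 1 or averaged probe sets per gene, and fewer arrays enter where 1 is left out; for the other settings the cause was not tested.

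Same-numbered arrays did not deviate together (correlations of -0.0599 to 0.0467), so the replicate number was not taken to pair them. With it as a block, 1828 probe sets were called in metastasis IgG against healthy IgG, and 1 member, Angptl4 1453410_at, in anti-VEGF against healthy IgG (adjusted p = 0.0360), and no other member call changed. In anti-VEGF against metastasis IgG, the small differences of Ptprb 1436367_at and Tek 1418788_at turned sign. With an array left out, Ptprb ran from -0.03 to 0.03, at 0.02 without anti-VEGF array 3 and 0.03 without metastasis IgG array 1, and Tek from -0.02 to 0.01, at 0.01 without anti-VEGF array 3 and 0 to 2 decimals without metastasis IgG array 2. All other member differences kept their sign under all alternatives run.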
